A study of Bos taurus with 24 samples.

Results

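Heat shock proteins and chaperones were examined in single early bovine blastocysts, in which RNA was measured by sequencing. The 90 members were taken by symbol alone from the 24621 genes listed, and no measured value was used to choose them. They were the genes whose symbols begin with HSPA, HSPB, HSPD, HSPE, HSPH, HSP90, DNAJ, AHSA or BAG, with the subunits of the cytosolic chaperonin (TCP1 and the CCT genes) and the heat shock factors HSF1 and HSF2. By family they comprised 12 HSP70 genes, 5 genes of HSP90 and its activators, 7 small heat shock proteins, 2 mitochondrial chaperonin genes and 8 cytosolic chaperonin genes. The J-domain genes numbered 4 of class A, 14 of class B and 28 of class C, beside 6 BAG genes, 2 heat shock factors and the pair HSPBP1 and HSPBAP1. All but DNAJB7 had at least 1 count, giving 89 members of the 19556 genes with a count.

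Chaperones bind unfolded protein and help it to fold or to be degraded. HSP70 proteins cycle on and off their clients with ATP, J-domain proteins stimulate that cycle, BAG proteins and HSPBP1 release the nucleotide, and HSP90 takes over clients such as kinases and receptors at a later step. Mammalian HSF1 is best known for switching on the inducible members, HSPA1A among them, after heat or other protein damage, whereas HSPA8 is made constantly, and the endoplasmic reticulum (ER) holds its own set of chaperones whose genes respond to unfolded protein in that compartment.

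The 3 groups held 8 Holstein embryos each, and each embryo was 1 replicate. In vivo derived embryos (embryos A, 5 male and 3 female) were flushed from 3 superovulated cows inseminated with semen of a single bull. The in vitro embryos came from slaughterhouse oocytes fertilised with semen of that bull, and were matured and cultured either with fetal bovine serum (embryos B, 3 male and 5 female) or without it, with epidermal growth factor during maturation and with albumin, insulin, transferrin and selenium during culture (embryos C, 5 male and 3 female). The in vivo donors were thus hormone-stimulated, and maturation and culture media changed together between the in vitro groups. All in vivo embryos were recovered on the same day after insemination. The in vitro embryos, from 3 experiments, were harvested on that day or the day before, so age may differ between in vivo and in vitro embryos. The labels do not tie an embryo to a cow, an in vitro experiment or a sequencing lane, so that embryos that share one of these could not be blocked, and the tests treat all of them as independent.

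Depth ran from 3253051 to 9000447 exon counts per embryo, and 3 counts, the floor used here, equalled 0.333 to 0.922 CPM (counts per 1e6 counts of an embryo) before TMM scaling. Across 7557 genes embryo B2 stood apart, with a median correlation of 0.772 with the other embryos of its group against 0.861 for the next lowest embryo, B5, and 0.942 for the highest, A2. Embryo C7 had the lowest such correlation of the serum-free embryos, 0.889 against 0.900 for the next, C4. Its TMM scaling factor, 0.852, was the lowest of all embryos. It also carried high levels of ER genes, given with those genes. Results that rest on B2 or C7 are given with and without that embryo. Markers also differed between groups. In serum-containing medium 4 of 6 tested trophectoderm genes were lower than in vivo, where 13.4% of all genes tested were. They were KRT8, KRT18, GATA2 and GATA3, which mark the outer epithelium of the blastocyst. TEAD4 (log2 fold change 0.71 ± 0.32) and TFAP2C (0.32 ± 0.22), also tested, had positive differences that did not reach an adjusted p under 0.05. The summed level of the 9 trophectoderm markers was 7605 to 14902 CPM in vivo, 334 to 5208 CPM with serum and 5051 to 28829 CPM without serum. KRT8 made up most of these sums, at 9147, 1105 and 9072 CPM on average in the same order. For the inner cell mass list the sums were 316 to 434, 301 to 739 and 205 to 481 CPM in the same order. SOX2 was higher with serum (log2 fold change 1.25 ± 0.40). KLF4 (0.60), SALL4 (0.67) and POU5F1 (−0.55), also tested, did not reach an adjusted p under 0.05. Among hypoblast markers SOX17 was at 0 in vivo and with serum, and PDGFRA was lower in both cultures than in vivo. GATA6, also tested, did not pass with serum (0.16, adjusted p = 0.709) or without serum (−0.21, adjusted p = 0.722). PTX3 of the cumulus list was at 0 in every group, and the cumulus sums spanned 1.62 to 51.4 CPM. PECAM1, the only gene tested in the list of blood and uterine cells, was lower with serum, at 20.9 CPM on average against 108 CPM in vivo and 102 CPM without serum. The others of that list, all low and not tested, did not share one direction. With serum and in vivo, OVGP1 averaged 7.96 and 1.27 CPM, HBB 0.911 and 0.186 CPM, PTPRC 0.519 and 0.312 CPM, and CD68 3.69 and 4.33 CPM. In whole embryos fewer cells of a type and less RNA per cell cannot be told apart, and the part of these markers in the chaperone differences was not tested.

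The members together took 2.21% ± 0.158 (SD, n = 8) of the counts in vivo, 2.41% ± 0.273 with serum and 2.39% ± 0.188 without serum. The constitutive HSP70, HSPA8, carried 26.4% of the normalised member counts and HSP90AA1, a cytosolic HSP90, 10.8%. Member levels within a group varied less than those of other genes: the median SD of log2(CPM + 1) over 61 members was 0.284 in vivo, 0.451 with serum and 0.394 without serum, against 0.373, 0.608 and 0.460 over the 7557 genes. That ordering is a description, since members are not matched to other genes in level.

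A gene entered a test if all embryos of 1 group, or of both, reached 15 counts. It passed with an adjusted p under 0.05 in edgeR's quasi-likelihood test. Differences are log2 fold changes with their approximate standard error, of either culture over in vivo and of serum-free over serum. In serum-containing medium 61 of 90 members were tested against the in vivo derived embryos and 15 were differentially expressed, 12 higher and 3 lower with serum. The 12 were 19.7% of the members tested, where 14.8% of all 7339 genes tested were higher, and the 3 were 4.92%, where 13.4% of all genes were lower. With a change of at least 2-fold there were 6 members, 3 in each direction, or 9.84%, where 13.8% of all genes qualified. The median log2 fold change was 0.04 over the members and 0.01 over all genes. Serum and in vivo embryos did not overlap for 6 members (9.84%), where 7.09% of all genes did not. AHSA2, BAG2 and DNAJC9, among these 6, entered the test only through the group where each was higher, as did HSPA1A. Each of them was also among the members past 2-fold.

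In embryos produced in serum-free medium 6 of 61 members were differentially expressed against in vivo derived embryos, all of them higher. They were 9.84% of the members, with a background of 3.38% of 7314 genes higher and 2.45% lower, and the 4 with at least 2-fold change were 6.56%, with a background of 2.20%. Both counts include AHSA2 and HSPA1A, which entered the test only through the serum-free embryos, where they were higher. The medians were 0.09 over members and 0.00 over all genes. Serum-free and in vivo embryos did not overlap for 1 member (1.64%), where 0.930% of all genes did not. Both culture comparisons share the in vivo derived embryos, so their values are given side by side and their overlap is no separate result.

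When the cultures were compared directly, 4 of 60 members were higher without serum, where the background was 8.02% of 7181 genes, and 5 were lower, where it was 8.29%. The 3 members that passed with at least 2-fold change were 5.00%, below the 8.91% of all genes. Of the members higher without serum, BAG2 and DNAJC9 entered the test only through the serum-free embryos. Medians were 0.07 over members and −0.02 over all genes. No member separated the cultures fully, where 2.37% of all genes did. This comparison was the least stable: leaving out 1 embryo gave between 2 and 10 members, with 2 without C7 or without B3, and without C7 the members past 2-fold fell to 1, HSP90AB1. All genes passing ran from 690 without C7 to 1342 without B1, with 796 without B3.

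**Figure D1:**
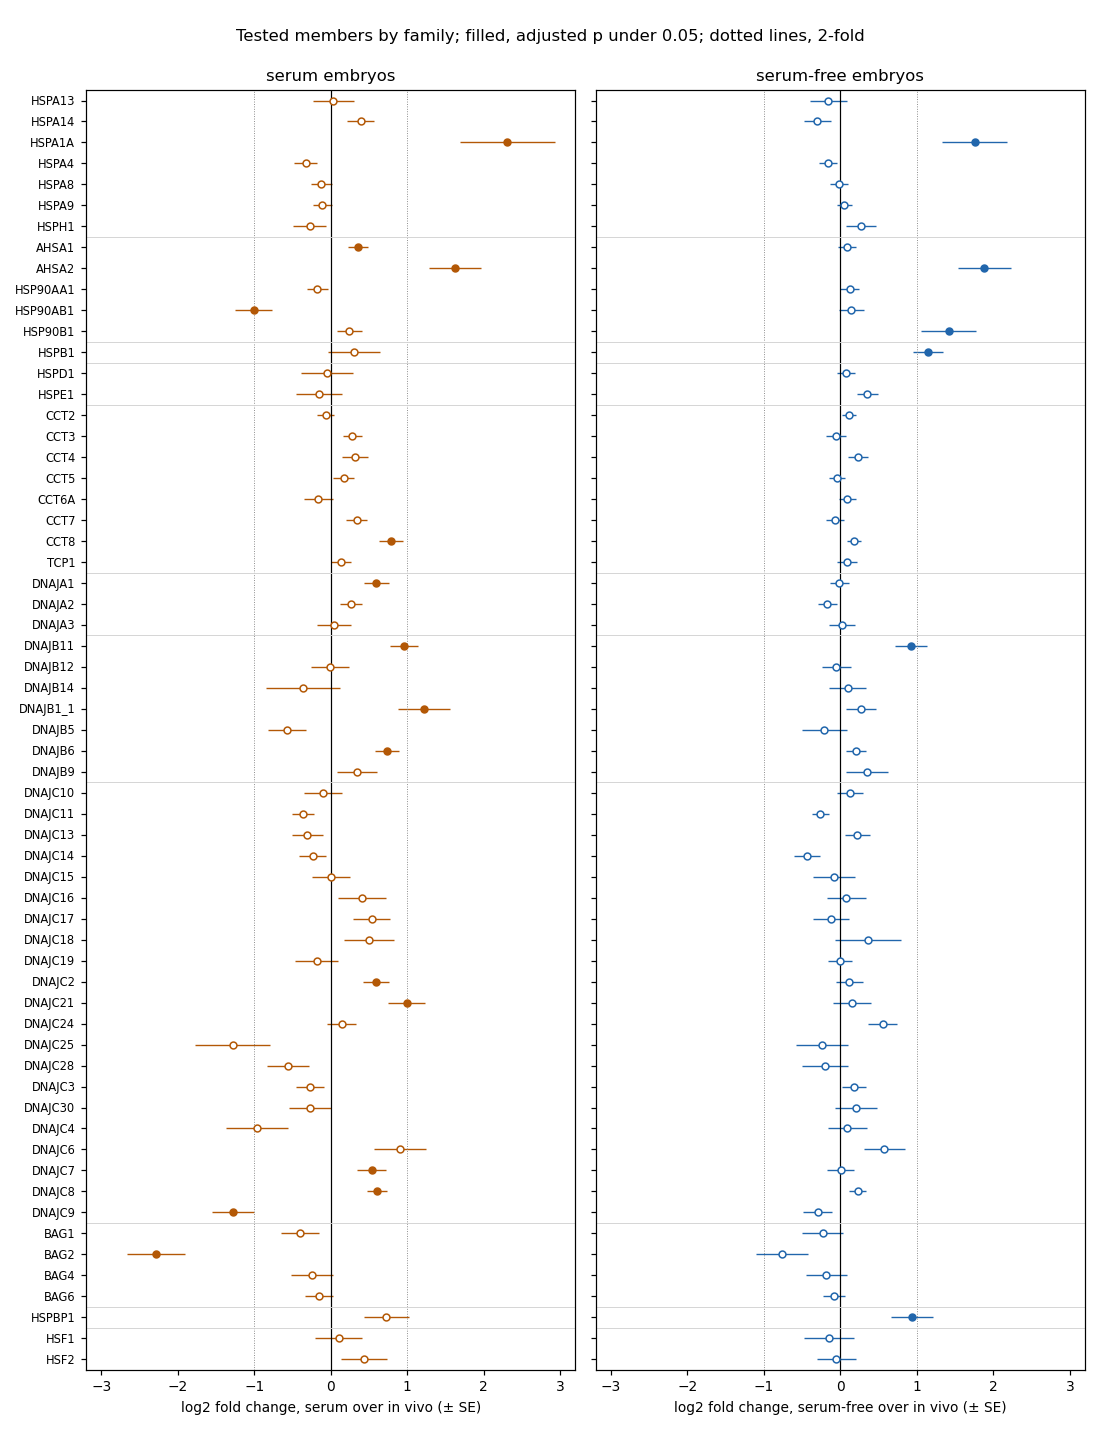
Log2 fold changes with approximate standard errors (x axis) of the members tested, grouped by family (y axis), for serum-containing medium over in vivo (left) and serum-free medium over in vivo (right), with 8 embryos per group. Filled points have an adjusted p under 0.05 and dotted lines mark 2-fold. The filled points lie on both sides of 0 on the left (12 higher, 3 lower) and above 0 on the right (6 higher).

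Among the genes of HSP90 and its activators, the marker of the list, AHSA2, was higher in both cultures. AHSA2 is a relative of AHSA1, the activator of the HSP90 ATPase. Its lowest, median and highest levels were 1.46, 4.02 and 5.04 CPM in vivo, 6.36, 10.4 and 22.3 CPM with serum, and 4.38, 12.6 and 29.5 CPM without serum. All 8 serum embryos lay above every in vivo embryo, as did 7 of 8 serum-free embryos, the exception being C3. The difference was 1.62 ± 0.34 with serum (adjusted p = 0.00229) and 1.88 ± 0.35 without serum (adjusted p = 0.00318), and between the cultures it was 0.25 ± 0.36 (adjusted p = 0.659). Its counts were low, 6 to 27 in vivo, and it was tested only because the cultured embryos reached 15 counts, a filter through which a gene high in culture alone enters the list.

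HSP90AB1, the other cytosolic HSP90, was lower in embryos produced in serum-containing medium. It measured 48.5, 68.6 and 95.3 CPM (lowest, median, highest) in vivo, 15.2, 36.2 and 62.9 CPM with serum, and 48.3, 75.7 and 102 CPM without serum. In the serum group 7 of 8 embryos lay below the in vivo range, B8 alone falling inside it. The log2 fold change was −1.01 ± 0.24 with serum over in vivo (adjusted p = 0.00533) and −0.86 without B2 (adjusted p = 0.00529). Serum-free embryos were higher than serum embryos by 1.15 ± 0.25 (adjusted p = 0.00793), and the value without C7 was 1.06 (adjusted p = 0.0196). Against in vivo the serum-free difference was 0.14 (adjusted p = 0.676).

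HSP90AA1 gave 2587 ± 342, 2299 ± 425 and 2805 ± 599 CPM (mean ± SD, n = 8) in vivo, with serum and without serum, and passed in none of the 3 comparisons (adjusted p = 0.331, 0.621 and 0.187). AHSA1 was higher with serum, at 165, 217 and 244 CPM against 133, 158 and 205 CPM in vivo, a difference of 0.36 ± 0.13 (adjusted p = 0.0443), with 5 of 8 serum embryos above the in vivo range. That call was lost when any 1 of 7 embryos (A1, A2, A3, A9, B3, B6 or B8) was left out. HSP90B1, the HSP90 of the ER, is described with the ER chaperones.

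**Figure D2:**
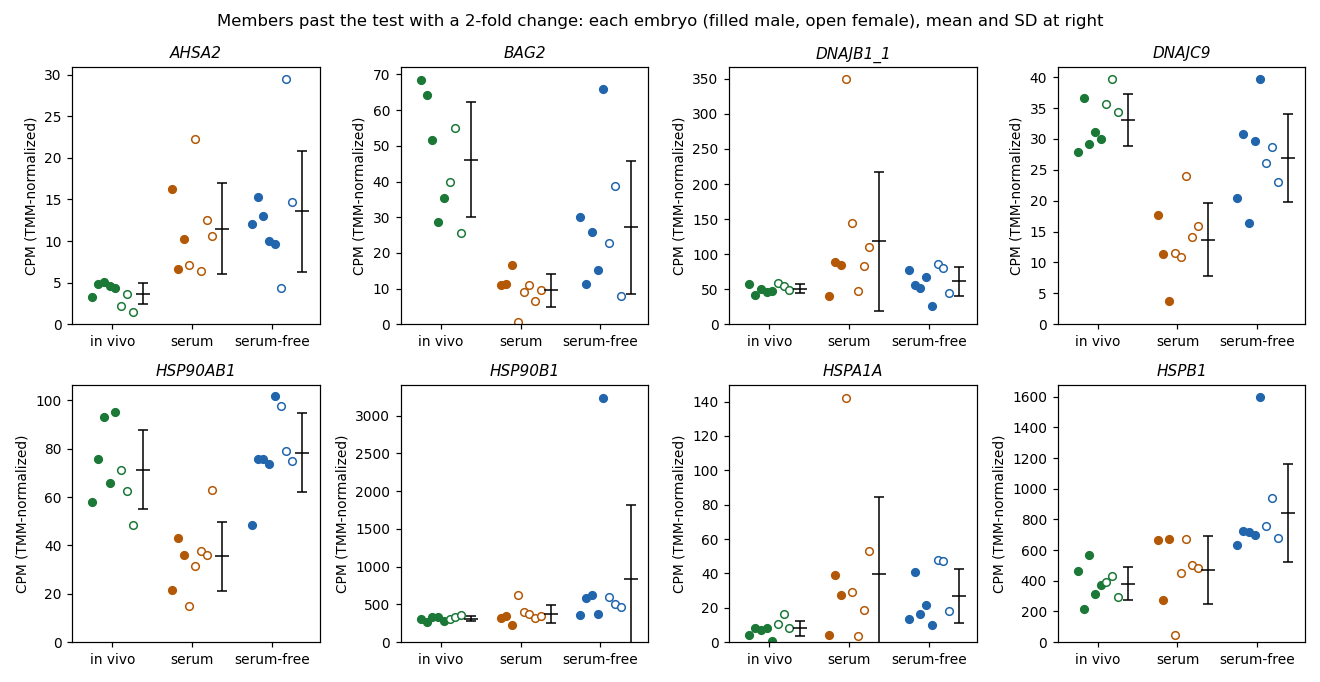
Normalised counts in CPM (y axis, linear from 0) of 8 members in each of the 24 embryos, by group (x axis), with filled symbols for male and open symbols for female embryos and the mean ± SD (n = 8) at the right of each group. AHSA2, BAG2 and DNAJC9 separate the serum embryos from all in vivo embryos. They entered that test only through the group where each was higher, and 7.09% of all genes tested separated likewise. HSPA1A, HSP90B1 and DNAJB1 owe their largest values to single embryos.

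Of the 7 HSP70 genes with enough counts to be tested, the inducible gene HSPA1A was the one higher in culture. It measured 0.732, 8.08 and 16.2 CPM (lowest, median, highest) in vivo, 3.64, 28.4 and 142 CPM with serum, and 9.93, 19.7 and 47.7 CPM without serum. The top value belonged to B2, 6 of 8 serum embryos and 5 of 8 serum-free embryos exceeded the in vivo range, and the serum embryos B1 and B4 lay within it. The log2 fold change was 2.31 ± 0.62 with serum (adjusted p = 0.0106), 1.68 without B2 (adjusted p = 0.024), and 1.75 ± 0.43 without serum (adjusted p = 0.021). The cultures differed by −0.55 (adjusted p = 0.524), and by 0.09 without B2. In a single fit over the 24 embryos the serum-free difference did not pass (adjusted p = 0.123). In vivo counts were 3 to 71, the gene was tested through the cultured embryos only, and its near-identical relatives limit the fragments that map uniquely, so the level is uncertain; HSPA1B and HSPA2 are not listed under those symbols.

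The constitutive HSP70 genes did not pass. HSPA8 ranged over 5426 to 7521 CPM in vivo, 3773 to 7291 CPM with serum and 5115 to 9084 CPM without serum, with differences from in vivo of −0.12 ± 0.14 and −0.02 ± 0.12 (adjusted p = 0.954 for the latter). The values for mitochondrial HSPA9 were −0.11 ± 0.13 and 0.05 ± 0.10. For the nucleotide exchange relatives they were −0.33 and −0.17 (HSPA4) and −0.28 and 0.27 (HSPH1), and neither gene passed in the 3 culture comparisons over both sexes. HSPA14, a ribosome-associated HSP70, measured 59.9, 77.6 and 104 CPM in vivo, 70.5, 97.3 and 169 CPM with serum, and 45.1, 55.4 and 106 CPM without serum. The groups overlapped. It was lower without serum than with serum (−0.69 ± 0.22, adjusted p = 0.0385), and this call was lost without any 1 of 8 embryos, among them B2 (−0.57, adjusted p = 0.0581) and the others C1, C2, C7, C8, C10, B3 and B6.

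Of the 7 small heat shock proteins only HSPB1, a holdase that keeps damaged protein from aggregating, had enough counts to be tested. Embryos produced in serum-free medium carried more of it. It measured 214, 382 and 566 CPM in vivo, 46.5, 495 and 672 CPM with serum, and 631, 722 and 1597 CPM without serum. Every serum-free embryo lay above every in vivo embryo, the highest being C7, and among the serum embryos B2 had the lowest value. The serum-free difference was 1.14 ± 0.20 (adjusted p = 0.00204), and 0.96 without C7 (adjusted p = 0.00114). It missed the threshold in a single fit over the 24 embryos (1.15, adjusted p = 0.063). With serum the difference from in vivo was 0.30 (adjusted p = 0.529), and 0.51 without B2 (adjusted p = 0.0657). Serum-free embryos were above serum embryos by 0.85 (adjusted p = 0.0999), a difference that passed without B2 (0.66, adjusted p = 0.0477). HSPB8 was near the floor, with means of 0.591, 1.79 and 1.68 CPM and no count in 12 of 24 embryos.

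The cytosolic chaperonin is a ring of 8 different subunits that folds actin and tubulin. With serum its subunit CCT8 was higher and the other 7 did not pass. CCT8 measured 683, 830 and 954 CPM in vivo, 898, 1314 and 2072 CPM with serum, and 809, 906 and 1014 CPM without serum. All serum embryos but B1 exceeded the in vivo range, and B5 and B7 were the highest. The difference was 0.78 ± 0.16 over in vivo (adjusted p = 0.00184), and serum-free embryos were lower than serum embryos (−0.61 ± 0.16, adjusted p = 0.0192), a call that no single embryo removed. Over in vivo, serum-free CCT8 differed by 0.18 (adjusted p = 0.252).

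The remaining subunits differed by −0.16 (CCT6A) to 0.34 (CCT7) with serum over in vivo, and by −0.07 (CCT7) to 0.23 (CCT4) without serum over in vivo. CCT7 and CCT3 came nearest to the threshold with serum (adjusted p = 0.0832 and 0.0992), followed by CCT4 (0.32, adjusted p = 0.17) and CCT5 (0.17, adjusted p = 0.362). TCP1 and CCT2 differed by 0.14 and −0.07. Summed over the 8 subunits the chaperonin took 5272 ± 733 CPM in vivo, 6439 ± 978 CPM with serum and 5457 ± 501 CPM without serum (mean ± SD, n = 8). That CCT8 differed from the other subunits was not itself tested.

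**Figure D3:**
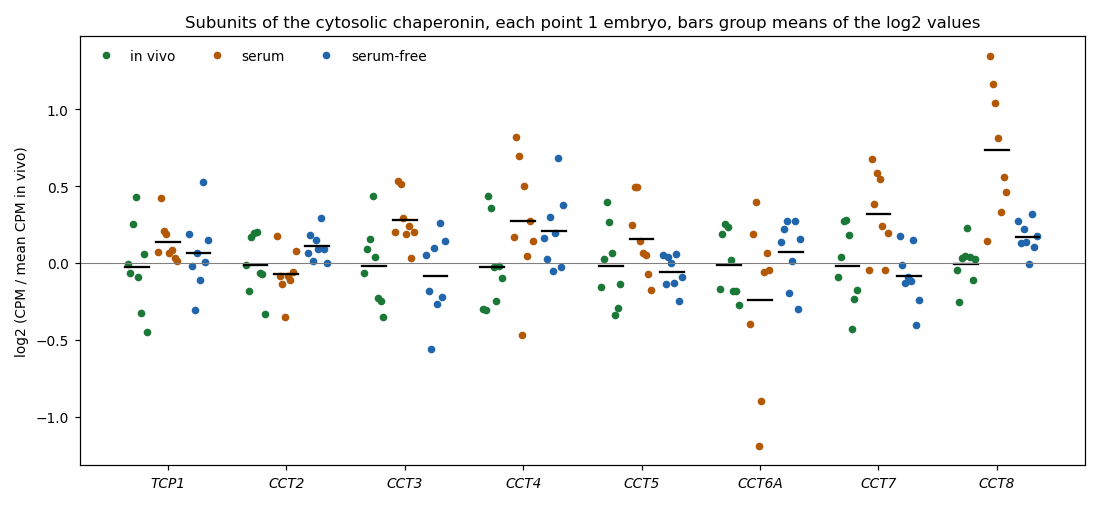
Level of each of the 8 cytosolic chaperonin subunits in each embryo, as log2 of its CPM over the mean in vivo CPM of that subunit (y axis), by subunit and group (x axis), with a bar at the group mean of 8 embryos. For CCT8, 7 of 8 serum embryos lie above the in vivo range, and for each of the other 7 subunits the serum and in vivo embryos overlap.

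The mitochondrial chaperonin genes HSPD1 and HSPE1, which neighbour each other in the bovine genome, did not pass in any comparison. HSPD1 measured 781, 1259 and 1505 CPM in vivo, 108, 1275 and 2027 CPM with serum, and 1113, 1265 and 1561 CPM without serum. For HSPE1 the levels were 410, 613 and 746 CPM, 72.9, 536 and 846 CPM, and 630, 704 and 999 CPM in the same order. Embryo B2 was the lowest of all 24 for both. The SD of log2(CPM + 1) of HSPD1 was accordingly 1.35 in the serum group, against 0.28 in vivo and 0.18 without serum. Of the 7 mitochondrial members tested 0 passed the quasi-likelihood test, the exact test or DESeq2 in the 3 comparisons, and 1, 2 and 0 had an unadjusted p under 0.05 for serum over in vivo, serum-free over in vivo and serum-free over serum.

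J-domain genes supplied most of the members that were higher with serum, but they were also most of the members tested. Of the 61 tested, 3 were of class A, 7 of class B and 21 of class C. DNAJB1, the partner of HSPA1A and HSPA8 in the heat shock response, is listed as 2 entries, of which 1 was at or below 3.23 CPM in all embryos. The other measured 41.7, 49.4 and 59.4 CPM in vivo, 40.8, 86.0 and 350 CPM with serum, and 26.4, 61.4 and 86.2 CPM without serum. B2 held the highest value, 5 further serum embryos exceeded the in vivo range, and B1 was below it. The difference with serum was 1.22 ± 0.34 (adjusted p = 0.0115), which decreased to 0.78 without B2 (adjusted p = 0.0126), under 2-fold. Without serum it was 0.27 (adjusted p = 0.465).

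DNAJA1, a cytosolic class A partner of HSPA8, was higher with serum by 0.60 ± 0.16 (adjusted p = 0.0118), at 775, 1327 and 1897 CPM against 780, 903 and 962 CPM in vivo. The serum embryo B1 lay just below the in vivo range, B4 within it, and the other 6 above it. Serum-free embryos, at 646, 810 and 1212 CPM, were lower than serum embryos (−0.61, adjusted p = 0.0398), a call lost without any 1 of 9 embryos (C1, C2, C6, C7, C10, B2, B3, B5 or B7).

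DNAJB6, which suppresses aggregation, separated the groups fully: 172, 263 and 298 CPM in vivo, 302, 412 and 577 CPM with serum. The difference was 0.73 ± 0.16 (adjusted p = 0.00248). Without serum DNAJB6 measured 242, 276 and 391 CPM, 0.21 over in vivo and −0.52 against the serum embryos (adjusted p = 0.032), the latter lost without C7, C10 or B3. DNAJC21, a ribosome assembly factor, rose from 11.4, 17.5 and 23.3 CPM in vivo to 21.7, 30.2 and 47.8 CPM with serum (0.99 ± 0.24, adjusted p = 0.00542) and was lower again without serum, at 10.3, 21.4 and 27.0 CPM (−0.84 against serum, adjusted p = 0.0347). This last call was lost without any 1 of 7 embryos (C1, C3, C7, C10, B3, B7 or B8).

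The smaller increases in DNAJC2, DNAJC7 and DNAJC8 were named after their values were seen. DNAJC8 rose by 0.60 ± 0.13 with serum (adjusted p = 0.00288), its 8 serum embryos (151 to 257 CPM) lying above all in vivo embryos (113 to 145 CPM). DNAJC2, a ribosome-bound chaperone, was higher by 0.59 ± 0.17 (adjusted p = 0.0143), and DNAJC7 by 0.54 ± 0.19 (adjusted p = 0.0392), a call lost without A2, A3, A6, A9, B3, B5 or B7.

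DNAJC9, which also acts as a histone chaperone, went the other way. It measured 27.9, 32.7 and 39.8 CPM in vivo, 3.74, 12.8 and 24 CPM with serum, and 16.4, 27.4 and 39.7 CPM without serum. No serum embryo reached the in vivo range, and its difference was −1.27 ± 0.27 (adjusted p = 0.00252), or −1.21 without B2. Against the serum embryos the serum-free ones were higher by 0.98 ± 0.30 (adjusted p = 0.0346), but 9 of the 16 embryos could each remove this call (C2, C3, C6, C7, C8, B2, B3, B5 and B7). The gene entered the test with serum through the in vivo embryos only, and that between the cultures through the serum-free embryos only. By class, 1 of 3 class A, 3 of 7 class B and 4 of 21 class C genes rose with serum, where 14.8% of all genes did, and 1 class C gene fell, where 13.4% did. Without serum DNAJB11 was the J-domain gene that passed against in vivo.

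BAG2, which inhibits the ubiquitin ligase that marks HSP70 clients, showed the largest decrease of any member. Its levels were 25.7, 45.8 and 68.6 CPM in vivo, 0.734, 10.3 and 16.5 CPM with serum, and 7.96, 24.3 and 65.8 CPM without serum. All serum embryos lay below all in vivo embryos, the lowest being B2 with 3 counts. The difference was −2.29 ± 0.38 with serum (adjusted p = 0.000428) and −2.08 without B2. For serum-free embryos it was −0.77 against in vivo (adjusted p = 0.186) and passed only without C7 (−1.08, adjusted p = 0.0398). Serum-free embryos exceeded serum embryos by 1.53 ± 0.46 (adjusted p = 0.032), which was lost without C1, C7, C8 or B3. BAG2 was tested with serum through the in vivo embryos only, and between the cultures through the serum-free embryos only.

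The other BAG genes tested did not pass. BAG1 differed by −0.41 with serum and −0.23 without serum, and BAG6 by −0.15 and −0.08. BAG3, a stress-inducible partner of HSPB8, was below the count limit, with means of 6.08 ± 3.40, 11.9 ± 8.39 and 8.95 ± 6.25 CPM. HSPBP1, named after its values were seen, was higher in serum-free embryos (0.94 ± 0.27, adjusted p = 0.0465), at 15.3, 25.7 and 39.9 CPM against 5.58, 13.2 and 23.6 CPM in vivo. The call was lost in 12 of 16 fits that each left out 1 embryo (A1, A2, A4, A6, A7, A8, A9, C2, C3, C4, C6 or C8). The heat shock factors were at 6.82, 7.31 and 6.15 CPM (HSF1) and 28.2, 38.3 and 27.0 CPM (HSF2) on average, and neither passed.

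**Figure D4:**
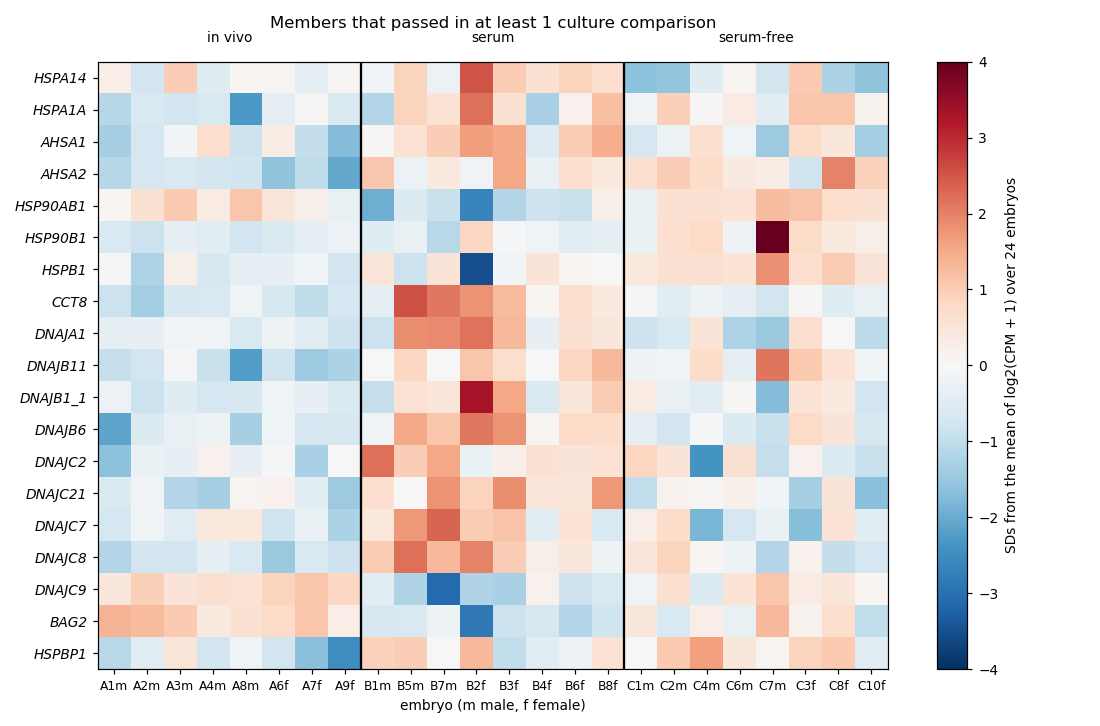
Level of the 19 members that passed in at least 1 of the 3 culture comparisons (y axis) in each of the 24 embryos, ordered by group (x axis), as z-scores of log2(CPM + 1) over all embryos on a colour scale from −4 to 4. Most serum embryos are high for CCT8, DNAJA1, DNAJB6 and DNAJC21 and low for BAG2, DNAJC9 and HSP90AB1. B1 is an exception for CCT8, DNAJA1 and DNAJB6, B4 for DNAJA1 and DNAJC9, and B8 for HSP90AB1. C7 is high for HSP90B1.

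Of the 7 ER members tested, HSP90B1 and DNAJB11 were higher in embryos produced in serum-free medium than in vivo, and much of the size of the HSP90B1 difference lay in embryo C7. HSP90B1 measured 263, 315 and 365 CPM in vivo, 231, 347 and 630 CPM with serum, and 358, 544 and 3233 CPM without serum. C7 held the top value and the next embryo of its group was at 623 CPM, while 7 of 8 serum-free embryos exceeded the in vivo range. The difference over in vivo was 1.42 ± 0.36 (adjusted p = 0.0249) and, without C7, 0.68 (adjusted p = 0.00326), under 2-fold. Over the serum embryos it was 1.19 ± 0.40 (adjusted p = 0.0473), a call lost in 12 of 16 fits that left out 1 embryo (C2, C3, C4, C7, C8, B1, B3, B4, B5, B6, B7 or B8), and 0.42 without C7 (adjusted p = 0.165). With serum HSP90B1 differed from in vivo by 0.24 (adjusted p = 0.268).

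DNAJB11, an ER partner of the HSP70 protein GRP78, was higher in both cultures and was named after its values were seen. It measured 31.7, 55.1 and 78.9 CPM in vivo, 79.8, 109 and 137 CPM with serum, and 69.3, 88.8 and 191 CPM without serum. Every serum embryo was above every in vivo embryo, and C7 was the highest serum-free embryo. The differences were 0.96 ± 0.18 with serum (adjusted p = 0.00127), 0.93 ± 0.21 without serum (adjusted p = 0.0128) and 0.75 without serum and without C7 (adjusted p = 0.0171). The other ER members tested, HSPA13, DNAJB9, DNAJC3, DNAJC10 and DNAJC25, passed in no comparison, so that 1, 2 and 1 of 7 passed in the comparisons of serum with in vivo, serum-free with in vivo and serum-free with serum.

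GRP78 itself, also called HSPA5, is listed under that name and is therefore not a member. It measured 429, 651 and 1021 CPM in vivo, 226, 508 and 732 CPM with serum, and 536, 909 and 8051 CPM without serum, C7 again being the highest. Serum-free embryos exceeded serum embryos by 1.97 ± 0.50 (adjusted p = 0.0162), and by 1.00 without C7 (adjusted p = 0.0363). The serum-free difference from in vivo was 1.43 ± 0.44 (adjusted p = 0.061), and 0.51 without C7 (adjusted p = 0.151).

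**Figure D5:**
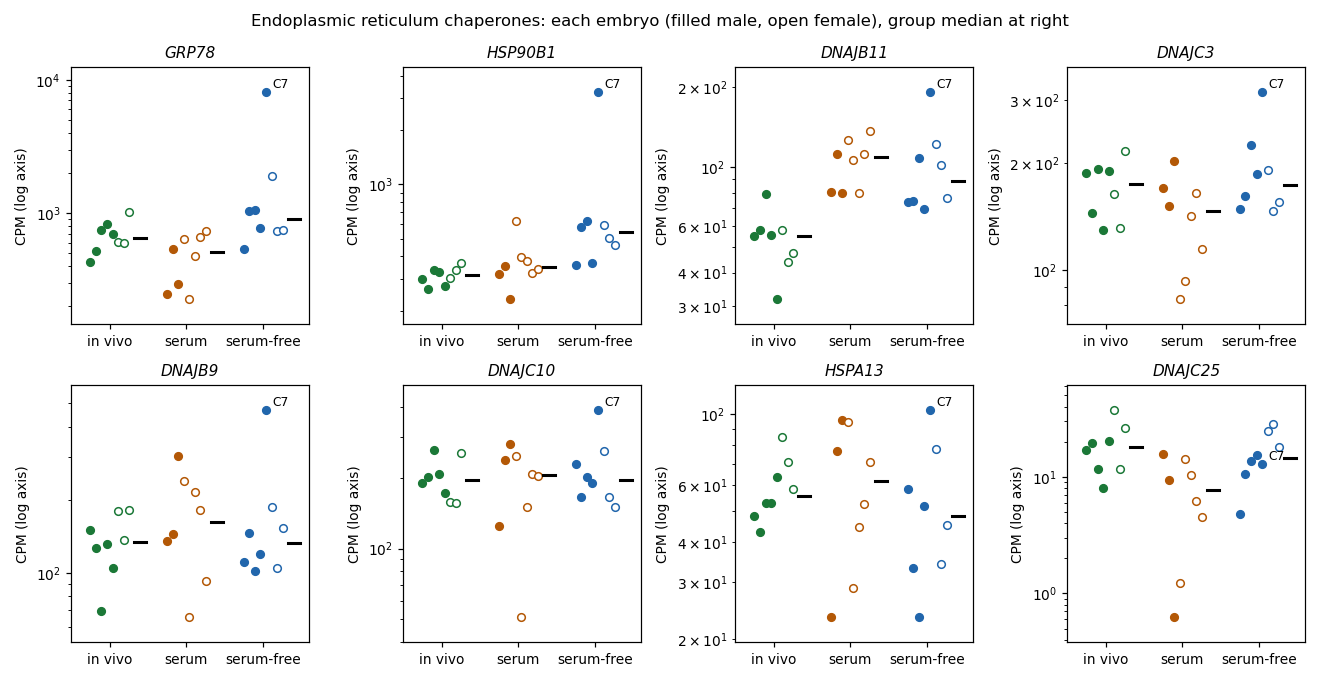
Normalised counts in CPM (y axis, log scale) of GRP78 and the 7 ER members tested in each embryo, by gene and group (x axis), with a tick at the group median and embryo C7 labelled. C7 is the highest serum-free embryo for every gene drawn except DNAJC25, with 8051 CPM for GRP78, 3233 CPM for HSP90B1 and 191 CPM for DNAJB11.

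Genes of the same pathways outside the list were counted in 4 groups. Of 22 co-chaperones of HSP90 and HSP70 tested with serum, 3 were higher and 3 lower than in vivo, where 14.8% and 13.4% of all genes were. Against in vivo 0 of 22 passed without serum, 3 had an unadjusted p under 0.05, the exact test called 0 and DESeq2 2 (and 9.11% of all genes). FKBP4, an HSP90 partner in steroid receptor folding, was the only co-chaperone past 2-fold, at 152 ± 82.0 CPM without serum against 61.1 ± 37.1 CPM with serum (1.31 ± 0.43, adjusted p = 0.0416), a call lost without C2, C3, C4, C7, C8, B1, B3, B4, B5 or B7. Among 10 genes of prefoldin and the chaperonin helpers 3 were higher with serum and 1 without serum, each against in vivo, where 14.8% and 3.38% of all genes were. In the mitochondrial group 2 of 11 were higher with serum, against the same 14.8%. CLPX, the unfoldase of a mitochondrial protease, was the only gene of that group past 2-fold, at 58.1 ± 17.5 CPM with serum and 26.9 ± 9.81 CPM in vivo (1.11 ± 0.24, adjusted p = 0.00279).

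Of the ER folding genes 4 of 18 passed as higher without serum than with serum, where 8.02% of all genes did. In that comparison 14 of the 18 had an unadjusted p under 0.05, as had 2374 of 7181 genes. The exact test called 9 and DESeq2 7, where they called 20.1% and 21.4% of all genes. Differences were positive for 16 and negative for 2, ATF6 and SDF2, with a median of 0.92. How far these tallies rest on C7 was not tested. With serum 1 of 17 was higher and 1 lower than in vivo (all genes, 14.8% and 13.4%), and without serum 1 of 18 was higher (all genes, 3.38%). This was MANF, a secreted ER stress protein, at 145, 159 and 184 CPM in vivo and 220, 311 and 1110 CPM without serum, with no overlap (1.31 ± 0.25, adjusted p = 0.00426, and 0.91 without C7, adjusted p = 0.000295). Against the serum embryos it was higher by 1.09 (adjusted p = 0.0153, and 0.65 without C7, adjusted p = 0.0204). The other 3 that passed as higher without serum than with serum were the transcription factor XBP1 (1.80, adjusted p = 0.0205), HERPUD1 of ER-associated degradation (1.80, adjusted p = 0.034) and ERP44 (1.16, adjusted p = 0.0218). None of these 3 passed without C7 (adjusted p = 0.056, 0.134 and 0.0578), and HERPUD1 also failed to pass without B1, B2, B3, B5 or B7.

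Within male embryos 10 of 64 members were differentially expressed between serum-containing medium and in vivo, 6 higher and 4 lower, which was 15.6% where 19.0% of all genes passed. They included CCT8 (0.96), DNAJB6 (0.71), BAG2 (−1.95), DNAJC9 (−1.49) and HSP90AB1 (−1.21), with HSPA4 (−0.65), which had not passed with both sexes. Leaving out 1 embryo gave 5 to 15 members, with 6 without A1, A2, A3 or A8 and 5 without B7. All genes passing ran from 797 without B7 to 2366 without B1. In serum-free male embryos 2 of 62 passed, AHSA2 (1.46, adjusted p = 0.0397) and HSPB1 (1.19, adjusted p = 0.0452), or 3.23% where 1.76% of all genes passed. No member passed in 8 of 10 fits that each left out 1 embryo (A1, A2, A3, A4, A8, C2, C4 or C6), while 1 passed without C1 and 3 without C7. Those 8 fits called 10 to 78 of all genes, and the fits without C1 and C7 called 149 and 231.

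Within female embryos no member passed the quasi-likelihood test in either culture, among 63 tested in each. With serum 16 members had an unadjusted p under 0.05, and 0.418% of all genes passed the quasi-likelihood test. edgeR's exact test called 4 members, where it called 6.03% of all genes, and DESeq2 called 6, where it called 8.80%. Without B2 the quasi-likelihood test called 4, where 7.13% of all genes passed. Without serum 10 members had an unadjusted p under 0.05, and 0.304% of all genes passed the quasi-likelihood test. The exact test called 4 members and DESeq2 5, where they called 2.74% and 2.78% of all genes. The smallest adjusted p belonged to DNAJB11 with serum (1.19, adjusted p = 0.074) and HSPB1 without serum (1.09, adjusted p = 0.0571). Female groups were small (3 in vivo, 5 with serum and 3 without serum), and AHSA2 differed by 2.27 and 2.71 in female embryos without passing (adjusted p = 0.107 and 0.16).

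The interaction of sex and culture, which tests whether a culture difference itself differed between the sexes, passed for 0 of 64 members with serum and 0 of 63 without serum, and 0.00% of all genes passed in each. Unadjusted p was under 0.05 for 2 and 5 members, DESeq2 called 0 in both (with 0.166% and 0.0593% of all genes), and HSPA8 without serum had the smallest adjusted p (0.428). Between male and female embryos, with culture as a covariate, 0 of 64 members passed where 2.20% of all genes did. There 5 members had an unadjusted p under 0.05, DESeq2 called 1, where it called 3.57% of all genes, and CCT5 came nearest (0.29, adjusted p = 0.0741).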

How the data were processed

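RNA of 24 single early bovine blastocysts was amplified by PCR as cDNA and sequenced, and the authors deposited raw counts per gene of exon fragments with a unique mapping position (Bos taurus build UMD3.1, per the labels). All value columns were matched to an embryo by name (0 were left unmatched). Groups and sexes came from the labels. Members follow a rule on symbols that uses no values, but this gene family, its rule and the gene lists were chosen with earlier results of these data known.

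Counts were tested across the whole table with edgeR 4.0.16 (R 4.3.3): TMM normalization with library size as the total over the genes tested, quasi-likelihood fits holding only the groups compared, and Benjamini-Hochberg adjustment over all genes tested. Tests with the interaction of sex and culture, and of sex with culture as a covariate, used the same model. Levels are CPM with TMM factors over the 24 embryos. They are not divided by gene length, which is not given in the sources used here. Shares of summed counts, as given for HSPA8, HSP90AA1 and KRT8, therefore also depend on gene length. Genes were otherwise not compared in level. Standard errors are approximate, from each estimate and its F. Medians, lowest and highest values are over 8 embryos. Without molecular identifiers, counts cover counting error only, and totals of 3253051 to 9000447 set the floor of 3 counts. Among 84 pairs of embryos within groups none held identical values.

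Named were the members that passed with at least 2-fold change in a culture comparison, a list of core members, and the 3 members with the largest change in each direction among those that passed. Others are marked. Alternatives were edgeR's exact test, DESeq2 1.42.0, its size factors in edgeR, a lower limit (any count) and a stricter one (15 counts in all embryos compared), 1 fit over 24 embryos, sex as a covariate, the replicate number as a block, each embryo left out and, added after seeing the data, library size over all genes and, for members below the count limit, any count without B2. RefSeq (assembly ARS-UCD2.0) was used for names and neighbours only: 88 members matched by symbol and 2 without the number of their entry. Sequences and coordinates were not used here. The replicate numbers of the labels did not pair the embryos.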

Additional observations from a re-analysis of the deposited data

Results flagged for a closer look

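In 19 of 141 groups of 8 values the highest or lowest embryo stood apart from the others by Dixon's test on CPM. For independent, normally distributed values about 1 in 20, or 7.05, would do so. The genes share embryos, some were named for passing a test, and CPM need not be normal, so 7.05 is only a rough guide. Embryo C7 accounted for 8 and B2 for 4 of the 19, and neither the cause nor the part of cell composition, depth or RNA quality was tested. C7 was the highest serum-free embryo for HSP90B1 (3233 CPM, next 623), HSPB1 (1597 CPM, next 943), DNAJB11 (191 CPM, next 122), GRP78 (8051 CPM, next 1887), MANF (1110 CPM, next 424), HERPUD1 (249 CPM, next 59.6), XBP1 (265 CPM, next 131) and ERP44 (211 CPM, next 117). B2 was the highest serum embryo for HSPA1A (142 CPM, next 53.2), DNAJB1 (350 CPM, next 144), HSP90B1 (630 CPM, next 394) and HSPA14 (169 CPM, next 105).

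The remaining values lay in other embryos. C8 was the highest serum-free embryo for AHSA2 (29.5 CPM, next 15.3) and for HSPB8 (9.74 CPM, next 2.63). Without C8 the serum-free difference of AHSA2 from in vivo was 1.62 (adjusted p = 0.0066). In vivo, A9 was the lowest embryo for HSPD1 (781 CPM, next 1225) and the highest for XBP1 (122 CPM, next 76.8), and A4 was the highest for HSPA4 (795 CPM, next 662). Among serum embryos B1 was the highest for BAG6 (75.6 CPM, next 51.0) and B5 for TCP1 (591 CPM, next 509).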

How the results depend on the processing

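No value for a named gene in a culture comparison reversed while past the threshold, and of the named genes that passed, 9 of 15 (serum over in vivo), 1 of 6 (serum-free over in vivo, AHSA2) and 0 of 9 (serum-free over serum) passed under every setting that could test them (AHSA2, HSPA1A, BAG2 and DNAJC9 could not be tested in every comparison with 15 counts in all embryos). Leaving out each embryo in turn gave 13 to 18 members for serum over in vivo (5 to 8 past 2-fold), 5 to 7 (3 to 6) for serum-free over in vivo and 2 to 10 (1 to 4) for serum-free over serum. For male embryos the ranges were 5 to 15 with serum and 0 to 3 without serum, and for female embryos 0 to 4 with serum and 0 to 0 without serum. All genes passing in those fits numbered 1747 to 2238, 275 to 468 and 690 to 1342 for the 3 culture comparisons in that order. For males they were 797 to 2366 and 10 to 231, and for females 2 to 596 and 1 to 18. The cause of these changes was not tested.

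With 15 counts demanded of all embryos compared, a limit that tests fewer genes, members past 2-fold numbered 2 for serum over in vivo and 2 for serum-free over in vivo, and those passing 1 in serum-free males and 1 in serum-free females. In that setting 1653 of 5743, 354 of 6359, 124 of 6627 and 22 of 7054 genes passed at any fold change, in the same order. With any count allowed, serum-free over serum gave 2 (1 past 2-fold), serum-free males 1 and serum-free females 4. Of all genes 4.03%, 0.650% and 1.67% passed there, in that order. A single fit over 24 embryos gave 3 (2 past 2-fold) for serum-free over in vivo and 17 for serum-free over serum. It called 112 of 7314 and 1793 of 7181 genes in those comparisons. The exact test called 4 in serum-free males, 4 in females with serum and 4 in females without serum, and DESeq2 6 and 5 in those female groups and 1 between the sexes. Of all genes the exact test called 4.48%, 6.03% and 2.74%, and DESeq2 8.80%, 2.78% and 3.57%, in the same order. Of all calls for serum-free over in vivo 58.0% were higher, and 69.6% in the single fit.

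Same-numbered embryos of different groups did not deviate together (r from −0.127 to 0.0881 over 7 pairs per comparison). With the replicate number as a block, 9 members passed for serum over in vivo, 2 (2 past 2-fold) for serum-free over in vivo, 0 (0 past 2-fold) for serum-free over serum and 0 in serum-free males, while 43.3% rather than 52.5% of all calls for serum over in vivo were higher. With that block 1077 of 7467, 160 of 7463, 30 of 7306 and 8 of 8092 genes passed, in the same order.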

Other observations

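Members below the count limit were fitted with any count allowed. Of 28 such members, 3 then passed for serum over in vivo, where 10.7% of 19159 genes passed, and none of 26 and 29 passed for serum-free over in vivo and serum-free over serum, where 3 and 2 had an unadjusted p under 0.05. These genes were named after their values were seen. HSPA6, a stress-inducible HSP70 close to HSPA1A, averaged 0.837 CPM in vivo, with no count in 3 embryos, and 10.5 CPM with serum, where B2 held 36.4 CPM (3.50, adjusted p = 0.008). Without B2 its serum mean was 6.79 CPM (2.94, adjusted p = 0.0188). DNAJC12 (3.13, adjusted p = 0.0302) and DNAJC27 (1.91, adjusted p = 0.0411) were also low, and B2 again held the highest serum value of DNAJC12, 27.6 CPM. Without B2 neither passed (2.36, adjusted p = 0.0922, and 1.74, adjusted p = 0.0647), an alternative chosen after seeing the data.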
